A study of Mus musculus with 12 samples.

Results

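Cux1, Cux2, Rorb, Rasgrf2, Fezf2, Bcl11b, Tbr1, Foxp2 and Tle4 are genes by which the excitatory neurons of the cerebral cortex are commonly assigned to layers. They were taken by symbol from the table of normalized counts and make up 9 of its 19775 genes. Each of the 9 symbols matched 1 gene, and every gene passed the filter on low values, a mean of 10 or more normalized counts, in each comparison. RNA was sequenced from the whole brains of 12 male C57BL/6N mice at about postnatal day 120. There were 4 wild-type mice (WT), 4 Slc6a20a+/- mice that lack exon 3 of the gene on 1 allele (HT) and 4 Slc6a20a-/- mice that lack it on both (HM), all from crosses of heterozygous parents. Slc6a20a codes for a membrane transporter of proline and glycine, and the deletion is not limited to the cortex or to neurons. Its normalized count was 679 ± 70.1 for WT, 345 ± 29.1 for HT and 64.5 ± 9.95 for HM mice (SD, n = 4 each), in the order that the genotypes give. The comparisons ask whether the loss of 1 or both copies goes with a different level of the layer genes.

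The cortex forms from the inside out, so that neurons of layers 5 and 6 are born before those of layers 2 to 4. The deep layers project mainly to subcortical targets and the upper layers mainly within the cortex. Fezf2 and Bcl11b (also called CTIP2) act in the corticospinal neurons of layer 5. Tbr1, Foxp2 and Tle4 mark corticothalamic neurons of layer 6. Cux1, Cux2 and Rasgrf2 mark layers 2 to 4, and Rorb mainly layer 4. None of the 9 genes is limited to the cortex. Bcl11b and Foxp2 are also used by projection neurons of the striatum, Rorb and Foxp2 by the thalamus and Tbr1 by the mitral cells of the olfactory bulb. In RNA from a whole brain, fewer cells of a type and less RNA per cell cannot be told apart, nor can a layer of the cortex be told from another region that uses the same gene.

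No member passed the test in any comparison. The test was limma on log2(normalized count + 1), fitted to all genes, with Benjamini-Hochberg (BH) adjusted p-values and a threshold of 0.05. Among all genes tested, 0.00555% passed when HT was set against WT, 0.0111% when HM was set against WT and 0.00556% when HM was set against HT, which is 1, 2 and 1 genes. The smallest adjusted p of a member in limma was 0.768, 0.670 and 1.00 in the same order. At an unadjusted p under 0.05 there was 1 member in HT against WT (Bcl11b, higher), 2 in HM against WT (Bcl11b and Rasgrf2, both higher) and 1 in HM against HT (Tle4, lower). At that threshold stood 6.42%, 6.99% and 3.74% of all genes, of which those in the direction of the members made up 3.16% (higher), 3.93% (higher) and 1.62% (lower). The comparisons with WT share the WT mice, so that they are not independent of each other.

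Each interval limits how large the difference of its own gene could be, without adjustment for the number of genes. Over the 9 genes, the 95% intervals of the difference from WT reached from -13.0% to 19.8% in HT and from -13.4% to 23.7% in HM mice. Between HM and HT they reached from -13.3% to 11.9%. In HT against WT, 6 of 9 fold changes were above 0 with a median of 0.06 on the log2 scale, in HM against WT 5 of 9 with a median of 0.04, and in HM against HT 3 of 9 with a median of -0.02. Of all genes tested, 50%, 49.8% and 49.5% were above 0.

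**Figure D1:**
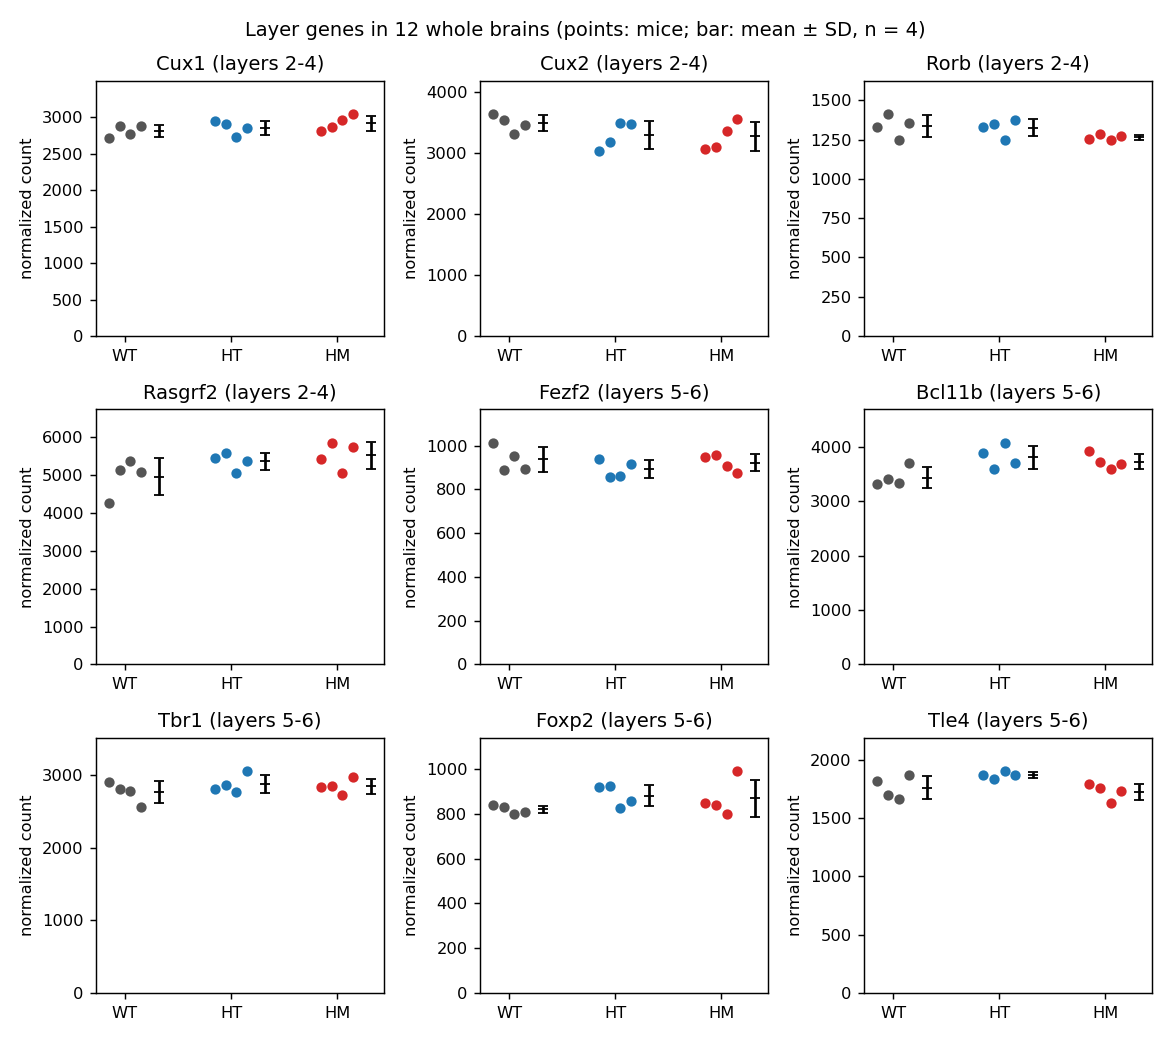
Normalized counts (y axis, from 0) of the 9 layer genes in each mouse (points) of the WT, HT and HM genotypes, with the mean and SD of 4 mice as bars. The genotypes overlap for every gene except Tle4, where the 4 HM mice (1628 to 1788) lie below the 4 HT mice (1836 to 1901).

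The level of a gene was set against its neighbours only per kilobase of transcript, taking the median length of the coding transcripts of each gene. On this scale Rasgrf2 had the highest mean over the 12 mice (1860 normalized counts per kb), followed by Bcl11b (1266), Tbr1 (1051), Cux2 (656), Cux1 (550.0), Fezf2 (419), Tle4 (393), Foxp2 (319) and Rorb (150). Fezf2 and Tle4 overlapped between mice, as did Tle4 and Foxp2, and no other neighbours in this order did. The order depends on the transcript that is assumed. With the longest coding transcript it was Rasgrf2, Tbr1, Bcl11b, Tle4, Cux2, Fezf2, Cux1, Rorb and Foxp2, and the neighbours from Bcl11b to Fezf2 then overlapped, as did Rorb and Foxp2.

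Among the upper-layer genes, Cux1 and Cux2 code for homeodomain transcription factors that shape the dendrites and spines of layer 2 to 4 neurons. In the GRCm38 annotation, Cux1 (ENSMUSG00000029705) covers chromosome 5 from 136248135 to 136567490 and Cux2 (ENSMUSG00000042589) covers 121856366 to 122050102 of the same chromosome, both on the minus strand. For Cux1 the WT mice lay between 2713 and 2882 normalized counts, the HT mice between 2724 and 2941 and the HM mice between 2808 and 3039, with log2 fold changes against WT of 0.02 in HT and 0.05 in HM. Leaving out 1 mouse gave 0.0063 to 0.045 in HT and 0.034 to 0.072 in HM. Cux1 was the steadiest of the 9 genes, with a highest value 1.12 times the lowest over all 12 mice. The 4 WT mice had 3641, 3540, 3323 and 3468 normalized counts of Cux2. The 4 HT mice had 3041, 3182, 3496 and 3481, and the 4 HM mice 3066, 3108, 3369 and 3562. In each mutant genotype, a pair of mice lay below every WT mouse and the other pair lay within the WT range. The log2 fold change of Cux2 was -0.08 (95% interval -0.20 to 0.03) in HT and -0.09 (-0.21 to 0.02) in HM, with adjusted p-values of 0.840 and 0.749 in limma. Without HT replicate 1 it was -0.045 in HT.

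Rorb codes for a nuclear receptor that takes part in the formation of layer 4 barrels, and Rasgrf2 for an exchange factor that activates Ras and Rac. Rorb (ENSMUSG00000036192) covers chromosome 19 from 18930605 to 19111196 and Rasgrf2 (ENSMUSG00000021708) covers chromosome 13 from 91880400 to 92131656, both on the minus strand. The 4 HM mice had 1253, 1288, 1249 and 1271 normalized counts of Rorb, a narrow band at the lower end of the WT mice (1332, 1412, 1250 and 1356) and the HT mice (1334, 1351, 1249 and 1375). The log2 fold change in HM against WT was -0.08 (95% interval -0.19 to 0.03).

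Rasgrf2 had the widest spread. The 4 WT mice had 4254, 5130, 5365 and 5086 normalized counts, the 4 HT mice 5444, 5601, 5069 and 5367, and the 4 HM mice 5439, 5859, 5061 and 5739. WT replicate 1 stood below the other 11 mice, and all 3 genotypes overlapped. The log2 fold change was 0.12 (SE 0.06, unadjusted p = 0.0823 in limma) in HT and 0.16 (SE 0.07, unadjusted p = 0.037, adjusted p = 0.688) in HM, and an exact two-sided permutation test gave p = 0.171 and p = 0.114. The smallest p that this permutation test allows with 4 mice against 4 is 0.0286. Without WT replicate 1 the log2 fold change was 0.05 in HT and 0.09 in HM.

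**Figure D2:**
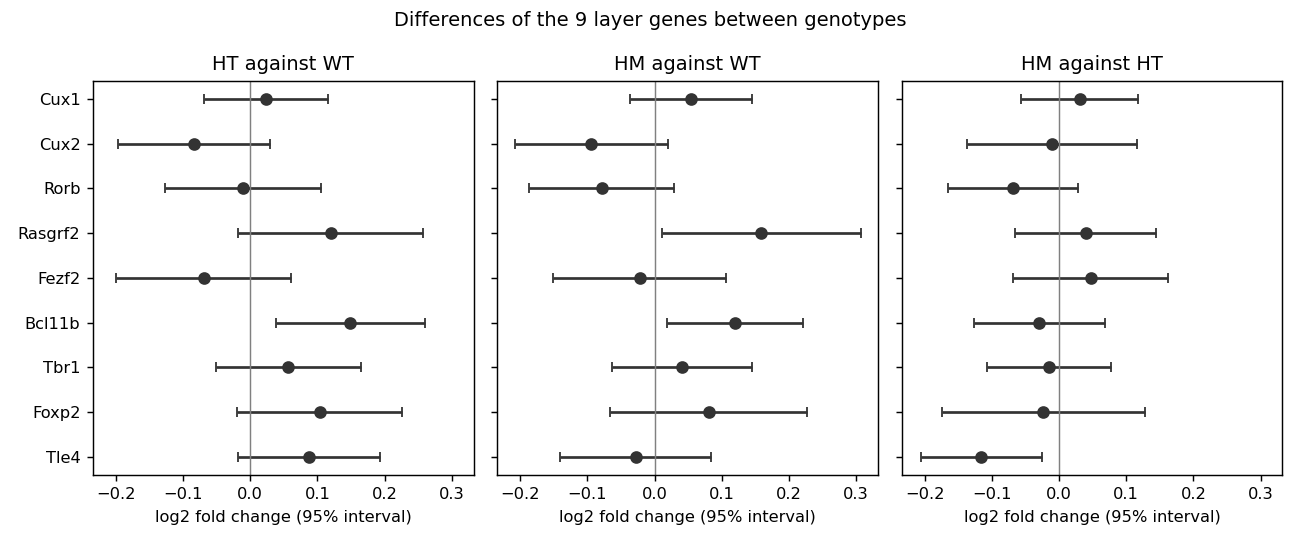
Log2 fold changes of the 9 layer genes (points) with their 95% intervals from limma (bars), 1 panel for each pair of genotypes. The intervals leave out 0 for Bcl11b in both comparisons with WT, for Rasgrf2 in HM against WT and for Tle4 in HM against HT, before any adjustment for the number of genes tested.

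Among the deep-layer genes, Bcl11b (ENSMUSG00000048251, chromosome 12 from 107910403 to 108003602, minus strand), a zinc finger transcription factor that corticospinal neurons need to extend their axons, was the member with the smallest p against WT in both mutants. The 4 WT mice had 3305, 3398, 3323 and 3705 normalized counts. The 4 HT mice had 3874, 3580, 4071 and 3701, and the 4 HM mice 3919, 3714, 3590 and 3684. Every mutant mouse lay above WT replicates 1, 2 and 3, and WT replicate 4 lay among the mutants. The mean was 10.9% higher in HT than in WT (log2 fold change 0.15, SE 0.05, 95% interval 0.04 to 0.26) and 8.63% higher in HM (0.12, SE 0.05, 0.02 to 0.22). Neither difference passed limma's adjusted threshold (unadjusted p = 0.0124 in HT and unadjusted p = 0.0242 in HM, adjusted p = 0.768 and adjusted p = 0.670). The exact two-sided permutation test gave p = 0.0857 for each. HT and HM differed by -0.03 (95% interval -0.13 to 0.07).

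Tle4 codes for a corepressor of the Groucho family and covers chromosome 19 from 14448150 to 14598051 on the minus strand (ENSMUSG00000024642). The 4 HT mice had 1872, 1836, 1901 and 1870 normalized counts, the 4 HM mice 1788, 1755, 1628 and 1734, and the 4 WT mice 1818, 1693, 1665 and 1869. The HT and HM mice did not overlap, and the WT mice spanned the gap between them. The mean in HM mice, against that in HT mice, differed by -7.73% (log2 fold change -0.12, SE 0.04, 95% interval -0.21 to -0.03). Limma gave an unadjusted p of 0.0157 and an adjusted p of 1.00, and the exact two-sided permutation test gave p = 0.0286, the smallest it can give. Of all genes tested in HM against HT, 2.38% did not overlap, and 1.14% did not overlap and were lower in HM, against which stands 1 of 9 members. Against WT, Tle4 had log2 fold changes of 0.09 in HT and -0.03 in HM, both with overlapping mice.

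Foxp2, a forkhead transcription factor (ENSMUSG00000029563, chromosome 6 from 14901349 to 15441977, plus strand), had 839.8, 830.0, 802.0 and 809.5 normalized counts in the 4 WT mice. The 4 HT mice had 920.9, 925.0, 825.7 and 857.6, and the 4 HM mice 849.3, 840.7, 798.9 and 991.3. The WT mice lay close together, and HM replicate 4 stood above all others. The log2 fold change was 0.10 in HT (95% interval -0.02 to 0.23) and 0.08 in HM (-0.07 to 0.23). Without HM replicate 4 it was 0.016 in HM.

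Fezf2 and Tbr1 showed the smallest differences of the deep-layer genes when both mutants are considered. Fezf2 (ENSMUSG00000021743, chromosome 14 from 12342094 to 12348189, minus strand), a zinc finger factor that specifies subcerebral projection neurons, had 890.7 to 1013 normalized counts across the WT mice, 854.9 to 939.6 across the HT mice and 876.1 to 957.8 across the HM mice. The log2 fold change of Fezf2 was -0.07 (95% interval -0.20 to 0.06) in HT, or -0.031 without WT replicate 1, and -0.02 (-0.15 to 0.11) in HM. Tbr1 (ENSMUSG00000035033, chromosome 2 from 61802930 to 61814114, plus strand), a T-box factor that represses the layer 5 program in layer 6 neurons, ranged from 2561 to 2911, 2769 to 3056 and 2722 to 2976 normalized counts. Its log2 fold change was 0.06 (-0.05 to 0.16) in HT and 0.04 (-0.06 to 0.15) in HM. WT replicate 4 was the lowest of the 12 mice, and without it these were 0.020 and 0.0047. In HT it was 0.027 without HT replicate 4, and in HM 0.020 without HM replicate 4.

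As a description of the deep layers together, each gene was centred on its mean over the 12 mice and the 5 genes were averaged per mouse on the log2 scale. The average lay between -0.06 and 0.0090 in WT, 0.0098 and 0.06 in HT and -0.06 and 0.04 in HM mice. Every HT mouse thus lay above every WT mouse, by a narrow margin. Of the HM mice, replicate 3 lay below every WT mouse and the other 3 lay above every WT mouse. Without HM replicate 3, the HM and WT mice did not overlap. Their means then differed by 0.06, against 0.04 with all 4 HM mice, and leaving out the lowest HM mouse can only raise the difference. The groups overlapped without any other 1 mouse, with differences from 0.026 (HM replicate 4) to 0.053 (WT replicate 1). Without Bcl11b they also overlapped, with a difference of 0.018. The means of HT and WT differed by 0.07, and by 0.04 with overlapping mice once Bcl11b was left out. The average of the 4 upper-layer genes overlapped between all genotypes and differed from WT by 0.01 in HT and 0.01 in HM. Both differences reversed without WT replicate 1 (-0.0054 in HT and -0.0074 in HM), and that of HM also without HM replicate 4 (-0.011). No test was made of these averages, since the genes were chosen with earlier results known, and whether deep and upper layers differed was not tested.

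**Figure D3:**
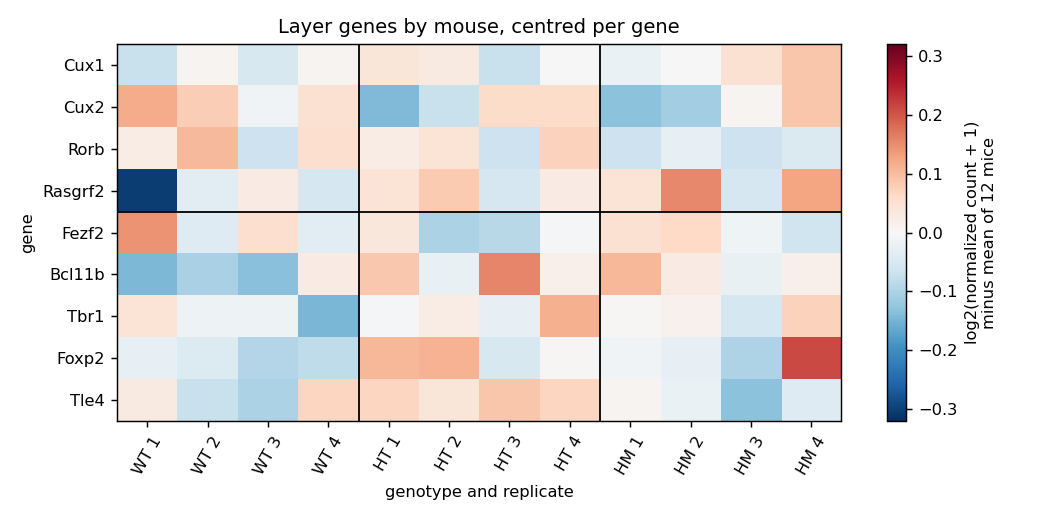
Log2(normalized count + 1) of each layer gene (rows) in each mouse (columns), minus the mean of the 12 mice for that gene, in red above and blue below it. The black lines part the genotypes, and the upper-layer from the deep-layer genes. WT replicate 1 is lowest for Rasgrf2 and highest for Cux2 and Fezf2, and the 4 HT mice lie above 0 for Tle4.

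The 9 genes varied little between mice of a genotype. The SD within a genotype, pooled over the 3 genotypes, ran from 0.048 (Cux1) to 0.107 (Rasgrf2) on the log2 scale. Its median was 0.071 against 0.118 over 17853 genes. These were not matched for level, and the members' means lay above those of 59.3% (Foxp2) to 92.5% (Rasgrf2) of them. As a coefficient of variation the SD of the members was 3.30% to 7.18%, while the counting of reads alone would give 1.38% to 3.42% at these levels. The genes did not vary as a block. Of 36 pairs, compared over the 12 mice after the genotype means were removed, 19 had a positive and 17 a negative Pearson's r, with a median of 0.01 and a range of -0.59 to 0.65. No pair passed the BH threshold over the 36 pairs (smallest adjusted p = 0.734 in permutation tests with 100000 resamples).

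The most extreme pairs both held Bcl11b. Bcl11b and Tle4 had r = 0.65 (permutation p = 0.0229) and Spearman's rho of 0.59 (permutation p = 0.0487), and r was 0.49 once the 2 mice with the most extreme Bcl11b were left out. Bcl11b and Tbr1 had r = -0.59 (permutation p = 0.045) and rho of -0.50 (permutation p = 0.104), and r was -0.18 once they were left out, so that this relation rested on them. Single mice stood out for several genes. WT replicate 1 was the highest of the 12 for Cux2 and Fezf2 and the lowest for Cux1, Rasgrf2 and Bcl11b, HM replicate 3 was the lowest for Rorb, Foxp2 and Tle4, and HT replicate 3 was the highest for Bcl11b and Tle4.

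Further layer genes were taken from lists. Of 12 other upper-layer genes, 9 were above 0 in HT against WT and 8 in HM against WT, each with a median log2 fold change of 0.07. Of 20 other deep-layer genes, 16 were above 0 in HT (median 0.05) and 15 in HM (median 0.02). None of these genes passed limma's adjusted threshold. At an unadjusted p under 0.05, 1 upper-layer gene was higher and none lower in HT, and none stood in HM. Among the deep-layer genes, 4 were higher and 1 lower in HT, and 3 were higher and none lower in HM. The shares of all genes at that threshold were 3.16% higher and 3.26% lower in HT and 3.93% higher and 3.05% lower in HM. The average of the 20 deep-layer genes per mouse, centred in the same way, lay between -0.06 and -0.01 in WT, -0.0056 and 0.04 in HT and -0.02 and 0.04 in HM mice, so that HT and WT did not overlap. The average of the 12 upper-layer genes overlapped.

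The deep-layer genes with the smallest unadjusted p included 2 that mark the deepest neurons, in layer 6b. Ccn2, a secreted matrix protein once called Ctgf, averaged 859 ± 35.1 normalized counts for WT, 957 ± 62.2 for HT and 991 ± 87.9 for HM (SD, n = 4 each), and the mice of either mutant did not overlap with WT. Its log2 fold change was 0.15 in HT (unadjusted p = 0.025 in limma) and 0.20 in HM (unadjusted p = 0.0101, adjusted p = 0.655). Cplx3, a complexin of the synaptic release machinery, had means of 474 ± 18.4, 554 ± 46.0 and 520 ± 18.7, with a log2 fold change of 0.22 in HT (unadjusted p = 0.00989, adjusted p = 0.768 in limma) and 0.13 in HM. Groups without overlap made up 3.73% of all genes in HT against WT and 4.22% in HM against WT.

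Zfpm2, a zinc finger cofactor of layer 6 neurons, had 502 ± 43.9, 572 ± 30.4 and 568 ± 32.9 normalized counts and log2 fold changes of 0.19 in HT and 0.18 in HM. The transcription factor gene Etv1, which marks layer 5, had 2980 ± 221, 3159 ± 91.1 and 3177 ± 126 normalized counts. Pcp4, a calmodulin-binding protein of the deep layers and the highest of the list, went the other way, with 6000 ± 343, 5689 ± 335 and 5617 ± 274 and log2 fold changes of -0.08 and -0.09. Of these 3 genes, Zfpm2 had an unadjusted p under 0.05 against WT in both mutants (unadjusted p = 0.0246 and unadjusted p = 0.035 in limma, adjusted p = 0.770 and adjusted p = 0.679), and Etv1 and Pcp4 in neither.

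Among the upper-layer genes, Calb1, a calcium-binding protein that other regions also hold, stood at 3573 ± 199, 3850 ± 154 and 3768 ± 273 normalized counts for the WT, HT and HM mice (log2 fold change 0.11 in HT, unadjusted p = 0.0429, adjusted p = 0.770 in limma). The homeobox gene Lhx2 had 1459 ± 48.1, 1553 ± 66.8 and 1441 ± 20.6, and its HT mice lay above all WT and all HM mice. Unc5d, a netrin receptor, had 1691 ± 189, 1847 ± 99.4 and 1830 ± 82.9. Lamp5, the highest of this list and also a gene of some interneurons, had 4043 ± 224, 3958 ± 364 and 4125 ± 427. All but Lhx2 overlapped between the genotypes.

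Genes that most excitatory neurons of the forebrain share stood close to the layer genes. Of 10, 6 were above 0 in each comparison with WT, with a median log2 fold change of 0.04 in HT and 0.03 in HM, and none passed the adjusted threshold. Slc17a7, the vesicular glutamate transporter of cortical neurons, differed from WT by 0.02 in HT and 0.0080 in HM on the log2 scale, and Camk2a, a kinase of the postsynapse, by 0.06 and 0.06. Sv2b, a synaptic vesicle protein, differed by 0.07 and 0.05. Mef2c, an activity-dependent transcription factor, averaged 12620 ± 923, 13987 ± 1140 and 14143 ± 429 normalized counts for WT, HT and HM (log2 fold change 0.15 and 0.17, unadjusted p = 0.0334 and unadjusted p = 0.00503, adjusted p = 0.770 and adjusted p = 0.643 in limma).

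**Figure D4:**
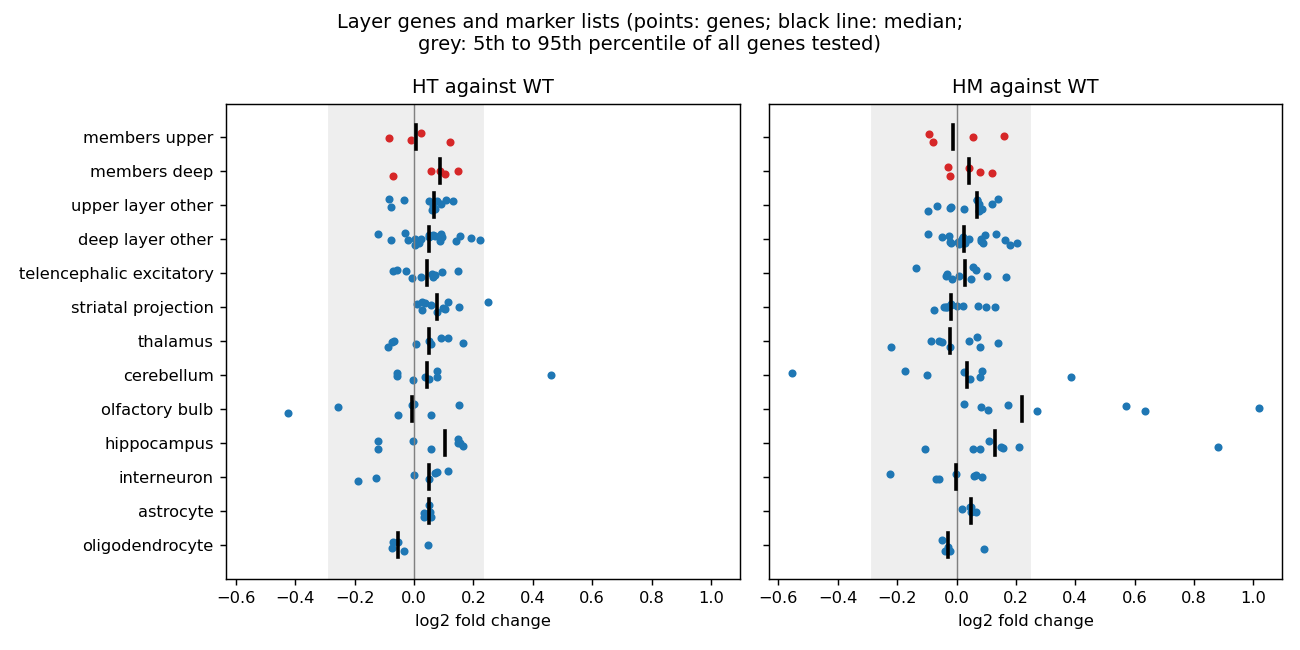
Log2 fold changes (x axis) of the layer genes and of the genes of each marker list (points) against WT for HT and for HM, with the median of the list as a black line and the 5th to 95th percentile of all genes tested in grey. All 11 striatal genes lie above 0 in HT against WT, and all 8 olfactory bulb genes lie above 0 in HM against WT.

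Markers of other regions that use the same genes were set beside these values. All 11 markers of striatal projection neurons were above 0 in HT against WT, with a median of 0.08 on the log2 scale, 5 of 11 in HM against WT (median -0.02) and none of 11 in HM against HT (median -0.07). Their summed normalized counts were 38786 to 40275 for WT, 39947 to 43214 for HT and 38332 to 40276 for HM mice. None passed the adjusted threshold and none was at 0 in any mouse. Bcl11b, Tbr1, Foxp2 and Tle4 had their highest mean in HT mice, as the striatal markers did. Of these genes, only Bcl11b and Foxp2 are named above for the striatum. The means of Bcl11b, Tbr1 and Foxp2 in HM mice exceeded those in WT mice, while the striatal median was below 0. After removal of the genotype means, Bcl11b and the mean of the striatal markers had r = 0.45 over 12 mice (permutation p = 0.141) and rho of 0.33 (permutation p = 0.296), Foxp2 had r = -0.19 (permutation p = 0.572) and Tle4 r = 0.18 (permutation p = 0.573). Once the 2 most extreme mice were left out, r was 0.61 for Bcl11b, -0.40 for Foxp2 and -0.105 for Tle4. These were 3 of 6 relations chosen after the values were seen, and none passed the BH threshold over the 6. The part of the striatum in the deep-layer values was not tested.

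**Figure D5:**
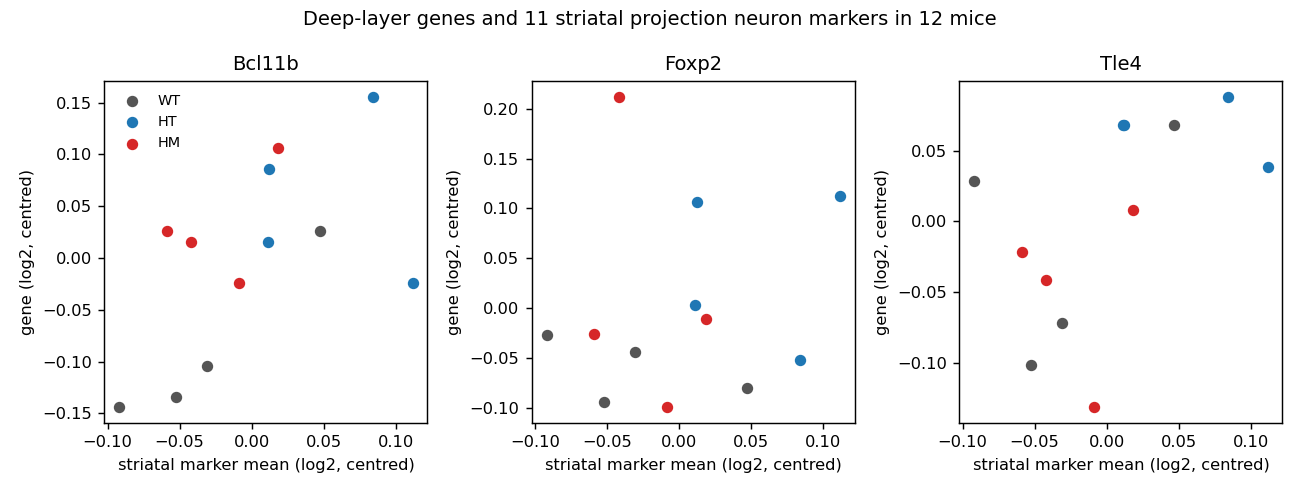
Bcl11b, Foxp2 and Tle4 (y axis, log2(normalized count + 1) minus the mean of the 12 mice) against the mean of 11 striatal projection neuron markers centred in the same way (x axis), 1 point per mouse coloured by genotype. The 4 HT mice lie to the right of 0 in each panel, and within genotypes the points show no tight relation.

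Rorb was read beside the thalamus. The 9 thalamic markers summed to 11206 to 12818 normalized counts for WT, 11510 to 12486 for HT and 11328 to 12048 for HM mice, with 6 of 9 above 0 in HT (median 0.05) and 4 of 9 in HM (median -0.02). Rorb and their mean had r = 0.63 over 12 mice (permutation p = 0.0279, adjusted p = 0.168) and rho of 0.59 (permutation p = 0.046), and r was 0.53 once the 2 most extreme mice were left out. Foxp2 had r = -0.34 (permutation p = 0.288). How much of Rorb came from the thalamus was not tested.

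Tbr1 was read beside the olfactory bulb. All 8 bulb markers were above 0 in HM against WT, with a median of 0.22 on the log2 scale, and 4 of them were higher at an unadjusted p under 0.05, where 3.93% of all genes stood. In HT against WT, 2 of the 7 tested were above 0 (median -0.01). The summed normalized counts were 4902 to 5514 for WT, 4885 to 5202 for HT and 5061 to 6137 for HM mice. Tbr1 differed from WT by 0.04 in HM on the same scale, and its r with the bulb markers was 0.49 over 12 mice (permutation p = 0.106, adjusted p = 0.282). The bulb markers' part in the Tbr1 values was not tested.

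The genes whose pattern over the 12 mice was most like the mean of the 9 layer genes, out of 17844, were Slitrk4 (r = 0.90, rho = 0.88), Bud13 (r = 0.86), Tsc22d2 (r = 0.86), Vangl2 (r = 0.85) and Shisa9 (r = 0.84). Slitrk4 and Shisa9 code for synaptic membrane proteins and Vangl2 for a component of planar cell polarity. They are the top of a ranking and carry no test.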

How the data were processed

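The deposited table holds a normalized count signal per gene and mouse. To make it, the authors selected poly-A RNA (kit without strand marking), assigned paired reads to GRCm38 transcripts with Salmon 1.1.0 with correction for GC bias, summed to genes with tximport and normalized with DESeq2 1.30.1; the annotation release was not given in the sources used here. The columns summed to between 33284951 and 33748623 normalized counts. A read was estimated to be worth 0.927 to 1.10 normalized counts, the size at which the largest share of values under 20 came out whole. That share was only 6.58% (HT replicate 2) to 24.2% (tolerance 0.02), so the size is rough and no count model was fitted. The counting errors given for the members rest on it.

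For each pair of genotypes, limma 3.58.1 (R 4.3.3) was fitted to log2(normalized count + 1) of the 8 mice, leaving out genes whose mean over them was under 10, and a mean-dependent trend was allowed in the variance prior, as planned for values that are not counts. Fold changes on this scale understate those of low genes. P-values measure the spread between the mice. Total degrees of freedom had medians of 13.2, 12.7 and 12.5. Single genes were also tested by exact permutation, and co-variation by permutation in scipy 1.17.1. Each step was tested on simulated data. Positions and transcript lengths came from GENCODE M21, where 19758 of 19775 identifiers were found. Annotated genes overlap Cux1 (4, of which 2 are in the table), Cux2 (2) and Foxp2 (1), and their reads cannot be told apart by strand.

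The members and lists were chosen with earlier results of these data known. Named genes were the 9 members, Slc6a20a, the 2 genes of smallest p in each comparison with WT and the 2 of highest mean in the lists of other upper-layer, other deep-layer and shared excitatory genes, the top gene of each marker list, and the 5 genes most like the members. A gene that this rule also names is not reported here. Marker lists covered striatum, thalamus, olfactory bulb, hippocampus, cerebellum, interneurons, astrocytes and oligodendrocytes. The settings varied were the pseudocount (0.1), the filter (none), a joint fit of all 12 mice, a block for replicate or animal number, quantile normalization, no trend in the variance prior and leaving out each mouse. For the layer averages, quantile normalization, leaving out each mouse and leaving out Bcl11b were chosen after seeing the data.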

Additional observations from a re-analysis of the deposited data

How the results depend on the processing

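No member passed the adjusted threshold under any of the 15 alternatives of each comparison, where the smallest adjusted p in limma was 0.507 (Rasgrf2, HM against WT, animal-number block). Of 405 alternative values in 27 member comparisons, 386 kept their direction and 19 reversed, and 17 comparisons never reversed. Replicate numbers did not pair the mice, since deviations of same-numbered mice correlated at -0.08 to 0.09; with a replicate block the genes passing in HM against WT went from 2 to 1, with no other call changed among counts and members. Without a trend in the variance prior, 0 genes passed in HT against WT and 1 in HM against WT. In HM against HT, 2 genes passed without a filter and 3 with the animal-number block. Leaving out 1 mouse gave 1 to 5 genes in HT against WT (5 without HT replicate 3), 2 to 3 in HM against WT (3 without HM replicate 3 or 4) and 1 to 7 in HM against HT (7 without HM replicate 2 or 3, 3 without HT replicate 3 or 4, 2 without HT replicate 2). Members without overlap then numbered 0 to 2 in HT against WT, 0 to 2 in HM against WT and 1 to 2 in HM against HT, where fewer mice make a gap more likely. With the animal-number block, in which few mice set the fold changes, log2 fold changes reversed for Cux1 in HT against WT (-0.0026), Tbr1 in HM against WT (-0.0062), and Cux2 (0.20), Fezf2 (-0.033), Tbr1 (0.067) and Foxp2 (0.10) in HM against HT. Other values moved without reversing, such as Rasgrf2 in HT against WT, from 0.12 to 0.041. In HM against WT, Cux1 went from 0.054 to 0.10, Cux2 from -0.094 to -0.051 and Fezf2 from -0.022 to -0.091. Leaving out 1 mouse, the reversed ones ranged from -0.043 to 0.018 for Rorb in HT against WT, from -0.046 to 0.016 for Fezf2 and -0.055 to 0.00061 for Tle4 in HM against WT, and, in HM against HT, from -0.052 to 0.020 for Cux2, -0.058 to 0.0033 for Bcl11b, -0.037 to 0.014 for Tbr1 and -0.088 to 0.016 for Foxp2. Their causes were not tested. The deep-layer average of HT stayed above that of WT without overlap under quantile normalization (difference 0.07), but overlapped once Bcl11b was left out (0.04). Leaving out any 1 mouse gave differences of 0.06 to 0.08 and could not bring about an overlap. The average of the 20 other deep-layer genes in HM overlapped with WT in the main setting. It had no overlap under quantile normalization, without WT replicate 1 or without HM replicate 3. These are the highest WT and the lowest HM mouse, and leaving either out can only open a gap. Without any other mouse the groups overlapped. Depth sets a counting error of 1.38% to 3.42% for the members, and each genotype had 4 mice.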

Other observations

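Other lists gave these values beside the layer genes. Of 8 hippocampal markers, 5 were above 0 in HT against WT (median 0.10 on the log2 scale) and 7 in HM against WT (median 0.13), with 2 at an unadjusted p under 0.05 in each, both higher (3.16% of all genes in HT and 3.93% in HM were higher at that threshold), and none past limma's adjusted threshold. Their summed level was 2824 to 3191 normalized counts in WT, 3097 to 3301 in HT and 3105 to 3483 in HM mice, and the highest of them was Prox1, the transcription factor of dentate granule cells. Several hippocampal neurons also use Bcl11b, and the part of the hippocampus in the Bcl11b values was not tested.

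Of 7 interneuron markers, 4 were above 0 in HT (median 0.05) and 3 in HM (median -0.0021), with 1 higher and 2 lower in HT and 1 lower in HM at an unadjusted p under 0.05. Of all genes, 3.16% were higher and 3.26% lower in HT and 3.05% lower in HM. In HT against WT, 3 of the 7 had groups without overlap, as did 3.73% of all genes. Their sum, led by Gad1, was 28875 to 30789 normalized counts in WT, 30240 to 31533 in HT and 28477 to 31763 in HM mice. Of the 8 cerebellar markers in the table, led by Zic1, 5 were above 0 in each mutant (median 0.04 in each), and the sums were 2770 to 3160, 2974 to 3191 and 2828 to 3181. All 5 astrocyte markers, led by Slc1a3, were above 0 in each mutant (median 0.05 in each) with sums of 29505 to 34071, 31950 to 33631 and 32332 to 33945. Of 5 oligodendrocyte markers, led by Mbp, 1 was above 0 in each mutant (median -0.05 in HT and -0.03 in HM) with overlapping sums. The highest genes of the striatal, thalamic and olfactory bulb lists were Pde10a, Prkcd and Synpr. No list gene was at 0 in any mouse, and none passed the adjusted threshold. No sample of the 27 groups of member values was set apart from its group by Dixon's test.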
